A study of Mus musculus with 19 samples.

Results

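Tumour-free liver of 3 mutant mice at 9 months was compared with liver of 3 mutant mice at 2 months, across all genes. Members were chosen by the sample labels alone, and these 6 libraries, from 6 animals, are part of a series of 19 libraries from 15 animals. All animals were male C57BL/6 mice, and 2 and 9 months count from the withdrawal of doxycycline at weaning (3 weeks of age), which switches the transgene of the mutants on. Per the series title, the transgene is the AP-1 dimer c-Jun~Fra2, a transcription factor made of c-Jun (gene Jun) and Fra-2 (gene Fosl2). No source used here names the promoter that drives it. At 9 months the mutants carried visible tumours, and the 3 libraries come from areas of the same livers without a tumour visible to the eye. Controls were littermates given the same withdrawal, whose alleles the sources used here do not name, with 6 animals at 2 months and 3 at 9 months. The labels describe the 2-month tissue as mostly hepatocytes and the 9-month mutant tissue as mostly transformed hepatocytes.

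Libraries were sequenced in 1 run per time point, and within a genotype time cannot be told apart from run. The RNA integrity range in the labels also differed between the times. A run effect that acts alike on mutants and controls cancels in the test of whether the 2 genotypes changed differently with time, called the interaction here. Library totals in mega-counts (M) were 15.68 to 18.83 M per library in the 2-month mutants and 18.98 to 22.06 M in the 9-month tumour-free mutants. In controls they were 14.29 to 17.45 M at 2 months and 19.87 to 20.88 M at 9 months. In bulk tissue, fewer cells of a type and less RNA per cell cannot be told apart. All 8 hepatocyte markers were tested and none was called, and their summed level was 46860 to 61970 CPM (counts-per-million, scaled with TMM factors) at 2 months and 46870 to 48470 CPM at 9 months. Alb made up most of this sum, with means of 30739 and 28067 CPM, and single markers moved in both directions. The mean of Ttr went from 3190 to 7106 CPM, that of Cps1 from 4890 to 2624 CPM, that of Apob from 9960 to 6085 CPM and that of Serpina1a from 373 to 234 CPM.

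AP-1 proteins bind DNA as pairs, at the sequence TGANTCA, and control genes of growth, stress and matrix. The adult liver carries much of the body's handling of drugs, bile acids and lipids, and in mice many of its P450, sulfotransferase and urinary protein genes differ between the sexes under the pulse pattern of growth hormone. The brush border is the layer of microvilli on absorptive epithelia of gut and kidney, with its own proteases, sugar-splitting enzymes, cadherins and myosins.

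Among the genes that changed between 2 and 9 months in the mutants, 6 brush border genes and most of the called Cyp2a and Cyp2c enzymes were higher at 9 months, with Tmigd1 and Cyp2c67 as the exceptions, and the called male-biased, conjugating and bile transport genes were lower. With edgeR's quasi-likelihood test and Benjamini-Hochberg adjusted p under 0.05 ("called" below), 332 of 14155 tested genes (2.35%) were called, 230 higher (1.62%) and 102 lower (0.721%) at 9 months. Of the 332 genes, 264 changed at least 2-fold, and 196 of the higher and 90 of the lower genes code for proteins. The median log2 change over all tested genes was -0.011. In all 332 genes the libraries of the 2 groups did not overlap, which was also the case for 3518 of the 14155 tested genes (24.9%). In controls 1616 of 13545 genes (11.9%) were called over the same interval, with 3 against 6 animals in place of 3 against 3, so the 2 counts come from tests of unequal size.

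The 2 transgene partners were high in the mutants at both times. Jun was at 643, 684 and 533 CPM at 2 months and at 786, 672 and 438 CPM at 9 months, with a log2 change of 0.03 ± 0.23 (SE) and an adjusted p of 0.963. Its 6 control libraries at 2 months lay between 10.5 and 25.8 CPM, with a median of 16.9 CPM, and the 9-month controls were at 387, 40.5 and 22.9 CPM. Fosl2 was at 887, 816 and 640 CPM at 2 months and at 937, 906 and 788 CPM at 9 months (log2 change 0.17 ± 0.17, adjusted p = 0.65), against 8.38 to 19.2 CPM in the 2-month controls. The mutant groups overlapped in both genes. Myc, the growth-promoting transcription factor named in the series title, was at 5.67, 8.38 and 14.4 CPM at 2 months and at 38.1, 7.28 and 8.47 CPM at 9 months (log2 change 0.91 ± 0.72, adjusted p = 0.552). Of the AP-1 family 10 members were tested and none was called by edgeR or limma voom, with 1 at an unadjusted p under 0.05 and 1 called by DESeq2.

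Tumour-free library 1 stood apart from the other 2. It was the highest of the 3 tumour-free libraries in 22 of 25 immediate early genes outside AP-1 and in 15 of 15 heat shock chaperone genes. The 9-month control library 1 was likewise the highest of its group in 21 and 14 of these genes. Tumour-free library 1 was also the highest in 39 of 45 amino acid breakdown and 26 of 29 NRF2 genes, against 20 and 4 for control library 1. Egr1, an immediate early transcription factor, was at 458 CPM in tumour-free library 1 and at 10.7 and 15 CPM in the other tumour-free libraries, against 10.7, 13.8 and 27.6 CPM in mutants at 2 months. Without this library 557 genes were called, and 285 of them were among the 332. Changes of single genes whose size rests on this library are given with and without it, and list medians with it alone. Without 2-month library 2 or tumour-free library 3, the number of called genes was 97 and 90.

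Of 28 brush border genes listed, 18 were tested, 6 were called higher (background 1.62%) and 1 was called lower (background 0.721%), with a median log2 change of 0.63 and 12 of the 18 changes above 0. Mep1a, the alpha subunit of the meprin metalloproteases (chr17:43474324-43502812), was at 1.36, 3.66 and 1.44 CPM at 2 months and at 53.3, 94.6 and 54.2 CPM at 9 months, a log2 change of 5.0 ± 0.44 (adjusted p = 0.00363). All 9-month values were above all 2-month values, and no 2-month control had a count. Without 2-month library 2 its log2 change was 5.58. Espn, which bundles the actin of microvilli, went from 2.6, 2.52 and 2.92 to 14.7, 17.5 and 31.7 CPM (log2 change 2.99 ± 0.31, adjusted p = 0.00471). Espn also differed in the interaction (log2 2.65 ± 0.49, adjusted p = 0.0123), with 2-month controls at 0.601 to 1.78 CPM and 9-month controls at 1.16, 1.47 and 1.18 CPM.

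Muc13, a transmembrane mucin of epithelial surfaces, was at 21.9, 34.7 and 69 CPM at 2 months and at 154, 252 and 274 CPM at 9 months (log2 change 2.44 ± 0.44, adjusted p = 0.0426). Cdhr2, the protocadherin that links microvillus tips, went from 10.5, 27.7 and 24.7 to 112, 113 and 89.2 CPM (log2 change 2.32 ± 0.33, adjusted p = 0.0192). Both were already above every control library at 2 months, where the highest control value was 0.15 CPM for each. Myo7b, a myosin of the same tip-link complex, went from 3.13, 2.96 and 5.32 to 13.3, 26.3 and 19.2 CPM (log2 change 2.35 ± 0.32, adjusted p = 0.0131). Treh, the trehalose-splitting enzyme of the brush border, rose by less, from 32.3, 38.3 and 44.3 to 73.7, 115 and 97.3 CPM (log2 change 1.32 ± 0.19, adjusted p = 0.0141). Treh rose in controls too (log2 change 3.55 ± 0.39, adjusted p = 0.000263) and by more than in mutants (interaction log2 -2.25 ± 0.50, adjusted p = 0.0376). The 9-month control library 2 was the highest for Treh, at 22.5 CPM, and without it the interaction log2 was -1.65 (adjusted p = 0.0578). The 1 lower gene was Tmigd1, an adhesion molecule of epithelial cells, at 3.96, 3.72 and 3.33 CPM at 2 months and 1.27, 1.16 and 1.02 CPM at 9 months (log2 change -1.67 ± 0.26, adjusted p = 0.0183). Mep1a and Espn kept an adjusted p under 0.05 when each of the 6 libraries was left out in turn. Muc13, Cdhr2, Myo7b, Treh and Tmigd1 lost it in at least 1 of these fits, and without tumour-free library 3 their adjusted p was 0.0573 to 0.121. In a fit over all 5 groups of the series, Mep1a, Muc13, Treh and Tmigd1 lost the call (adjusted p 0.0552 to 0.347). Muc13, Cdhr2 and Tmigd1 lie outside the rule for named genes and were chosen after their values were seen. The summed level of 8 markers of exocrine pancreas and gut, 3 of which had no count in any of the 6 libraries, was 10.72 to 16.31 CPM at 2 months and 22.05 to 27.14 CPM at 9 months. The 1 marker tested, Cela1, was not called, at 16.2, 10.7 and 10.7 CPM at 2 months and 21.8, 21.9 and 26.7 CPM at 9 months. Its mean was 28.6 CPM in the 2-month controls. Every other marker of this set was at or below 0.353 CPM in each of the 6 libraries, so the sum was almost all Cela1. The part of such cells in the result was not tested.

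The promoter of Muc13 is shown because it holds the AP-1 motif. Below are the 200 bases before its annotated GENCODE M21 start, chr16:33793837-33794036 (RefSeq sequence, GRCm38.p6, plus strand, 5′ to 3′). The match to TGANTCA is in capitals, and its first base lies 61 bases before that start.
Muc13: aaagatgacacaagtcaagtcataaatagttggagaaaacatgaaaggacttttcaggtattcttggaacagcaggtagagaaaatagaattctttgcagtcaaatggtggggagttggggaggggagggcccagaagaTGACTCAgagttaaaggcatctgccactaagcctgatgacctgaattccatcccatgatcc
The motif, which reads the same on both strands apart from its middle base, was searched in the 250 bases before the RefSeq start of each gene. Of the 14155 tested genes, 10729 have a promoter entry and 496 of these (4.62%) hold the motif. Among Mep1a, Espn, Cdhr2, Treh and Tmigd1, none holds it in this window, and Myo7b has no entry. An entry exists for 157 of the 230 higher genes, and 13 of these 157 (8.28%) hold the motif. For the lower genes an entry exists for 69 of 102, and 7 of these 69 (10.1%) hold the motif. Ugt2b38 and Ptgds, both called lower and described below, hold it as well. Genes without an entry could not be searched, and whether the shares differ from that of all tested genes was not tested.

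**Figure D1:**
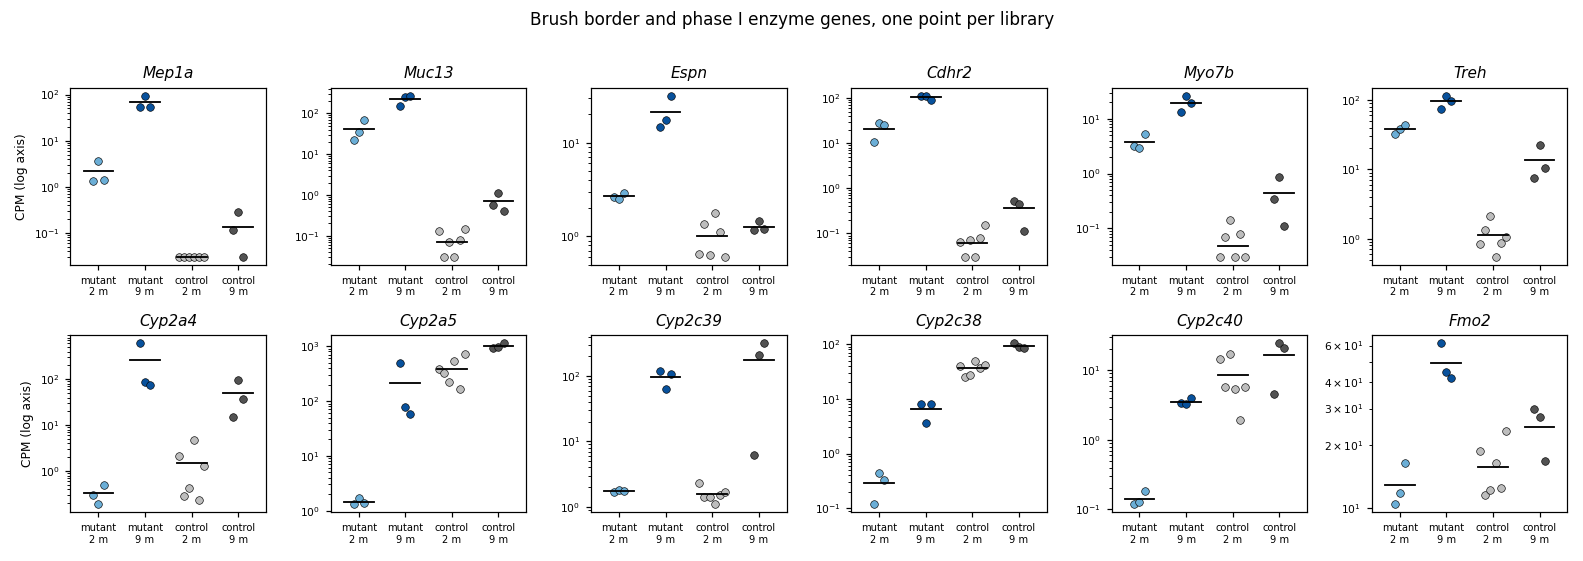
Level in CPM (log axis) of 6 brush border genes (upper row) and 6 phase I enzyme genes (lower row), 1 point per library and a bar at each group mean; values under 0.03 CPM are drawn at 0.03. The 3 tumour-free mutant libraries at 9 months (dark blue) lie above the 3 mutant libraries at 2 months (light blue) in every panel, and controls are grey.

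Wdr72, Slc1a1, Tff1 and Myo15b were among the 15 largest rises by the naming rule, and Itgb4 was named from the list of laminins and integrins. Wdr72, needed for enamel formation and vesicle traffic, went from 0.295, 0.441 and 1.34 to 26.9, 23.1 and 20.9 CPM (log2 change 5.01 ± 0.42, adjusted p = 0.0021), and rose in controls as well (4.76 ± 0.50, adjusted p = 0.000171). Slc1a1, a glutamate transporter of epithelia and neurons, went from 0.65, 1.13 and 3.19 to 26.5, 19.2 and 14.3 CPM (log2 change 3.54 ± 0.52, adjusted p = 0.0222). Itgb4, the beta-4 integrin of hemidesmosomes, went from 0.709, 1.45 and 4.21 to 13.2, 34 and 28.8 CPM (log2 change 3.53 ± 0.64, adjusted p = 0.0445). Tff1, a trefoil peptide of the gastric mucosa, was at 0.354, 0.441 and 0.417 CPM at 2 months and at 16.6, 3.52 and 4.59 CPM at 9 months (log2 change 4.33 ± 0.72, adjusted p = 0.0286). Its rise was highest in tumour-free library 1, and the log2 change without that library was 3.33 (adjusted p = 0.00485). Myo15b, a gene of the unconventional myosin family, went from 0.768, 0.63 and 2.64 to 13.4, 20.3 and 15.4 CPM (log2 change 3.55 ± 0.49, adjusted p = 0.0161).

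Elfn2, Doc2a and Cfap53 were further large rises outside the lists. Elfn2, a leucine-rich repeat membrane protein, had 2 counts over the 3 libraries at 2 months and 575 over the 3 at 9 months, a ratio of 219 after scaling to library size, with a 95% counting interval of 60.5 to 1820. Its fitted log2 change was 7.59, and 10.41 without 2-month library 3 (adjusted p = 0.00595). Doc2a, a calcium sensor of vesicle release, went from 0.591, 0.693 and 1.25 to 5.97, 14.2 and 15.1 CPM (log2 change 3.76 ± 0.45, adjusted p = 0.00864). Cfap53, a protein of cilia, went from 0.177, 1.2 and 1.11 to 20.1, 17.7 and 6.80 CPM (log2 change 4.14 ± 0.62, adjusted p = 0.0226). Of these 8 genes, Wdr72, Elfn2 and Doc2a kept the call in all 6 leave-one-out fits. The others lost it in at least 1, for example Slc1a1, Itgb4, Tff1 and Myo15b without tumour-free library 3, at adjusted p 0.0567 to 0.119. Without 2-month library 3 the log2 changes of Wdr72, Slc1a1, Itgb4 and Myo15b were larger, at 5.98, 4.48, 4.55 and 4.53.

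Phase I enzymes, which add the first oxygen to drugs and steroids, moved in both directions. Of 36 tested, 6 were called higher and 2 lower (backgrounds 1.62% and 0.721%), with a median log2 change of 0.00901. The 2 largest rises were those of Cyp2a4 (chr7:26307169-26315088) and Cyp2a5 (chr7:26835305-26843548), steroid and coumarin hydroxylases of near-identical sequence on the same chromosome. Cyp2a4 was at 0.295, 0.189 and 0.509 CPM at 2 months and at 615, 88.0 and 76.3 CPM at 9 months (log2 change 9.53 ± 1.32, adjusted p = 0.024). Cyp2a5 was at 1.30, 1.70 and 1.39 CPM at 2 months and at 501, 77.4 and 58.2 CPM at 9 months (log2 change 7.18 ± 1.11, adjusted p = 0.0323). Library 1 was the highest in both genes, and without it the log2 changes were 7.88 (adjusted p = 1.39e-05) and 5.55 (adjusted p = 1.96e-05). Both calls ended without any one of the 3 libraries of the 2-month group (adjusted p 0.0874 to 0.153) and with limma voom (0.0976 and 0.0934).

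The 2 genes differed in their control levels. Cyp2a5 was at 168 to 708 CPM (median 353 CPM) in the 2-month controls, above every 2-month mutant library, and at 922, 965 and 1143 CPM in the 9-month controls. Its change with time differed between the genotypes (interaction log2 5.81 ± 1.09, adjusted p = 0.0189). Cyp2a4 was at 0.237 to 4.73 CPM in the 2-month controls and at 15.2, 95.1 and 37.9 CPM in the 9-month controls, a rise as well (log2 change 5.01 ± 0.82, adjusted p = 0.00804), with an interaction adjusted p of 0.276.

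Sequences just upstream of both genes are shown because they are close to identical, as the transcripts are, and reads may be split between the 2 genes in ways the counts do not show. The 190 aligned bases (RefSeq, GRCm38.p6, plus strand, 5′ to 3′) end before the annotated gene starts, at chr7:26306969-26307158 for Cyp2a4 and chr7:26835115-26835304 for Cyp2a5. Capitals mark the 3 bases that differ, and 98.4% are the same.
Cyp2a4: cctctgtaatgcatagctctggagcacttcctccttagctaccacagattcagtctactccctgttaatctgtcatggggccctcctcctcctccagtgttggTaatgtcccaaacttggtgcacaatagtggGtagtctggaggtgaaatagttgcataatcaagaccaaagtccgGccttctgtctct
Cyp2a5: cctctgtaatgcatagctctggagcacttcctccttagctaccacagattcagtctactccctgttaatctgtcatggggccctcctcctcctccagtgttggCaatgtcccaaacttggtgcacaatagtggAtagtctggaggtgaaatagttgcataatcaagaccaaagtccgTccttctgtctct

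Cyp2c39, Cyp2c38 and Cyp2c40, of the Cyp2c family of arachidonic acid and drug hydroxylases, rose in all 3 libraries. Cyp2c39 went from 1.65, 1.83 and 1.76 to 121, 62.3 and 108 CPM (log2 change 5.79 ± 0.30, adjusted p = 0.000259). It rose in controls too, to 6.14, 209 and 320 CPM (6.81 ± 0.98, adjusted p = 0.00495). Cyp2c38 went from 0.118, 0.441 and 0.324 to 7.95, 3.68 and 7.99 CPM (log2 change 4.45 ± 0.49, adjusted p = 0.00594) and rose by more than in controls (interaction log2 3.07 ± 0.53, adjusted p = 0.00802). Cyp2c40 went from 0.118, 0.126 and 0.185 to 3.38, 3.25 and 3.93 CPM (log2 change 4.54 ± 0.36, adjusted p = 0.00141). In both Cyp2c38 and Cyp2c40 the 2-month mutants lay below every control library. Fmo2, a flavin-containing monooxygenase, went from 10.5, 11.9 and 16.5 to 61.7, 44.7 and 42.0 CPM (log2 change 1.93 ± 0.22, adjusted p = 0.00613). These 4 genes kept the call in all 6 leave-one-out fits, and Cyp2c40 lost it in a fit over all 5 groups of the series (adjusted p = 0.058). The Cyp2c family has near-identical members, so the split between them is uncertain.

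The 2 lower genes were Cyp2b10, an enzyme known to respond to phenobarbital-like drugs, and Cyp2c67. Cyp2b10 went from 90.4, 65.1 and 46.1 to 25.6, 33.2 and 27.7 CPM (log2 change -1.22 ± 0.24, adjusted p = 0.0432). Cyp2c67 went from 135, 69.8 and 87.6 to 32.0, 29.5 and 21.7 CPM (log2 change -1.81 ± 0.26, adjusted p = 0.0161). Both lie outside the rule for named genes and were chosen after their values were seen. Both lost the call without tumour-free library 2 (adjusted p 0.0882 for Cyp2b10 and 0.0608 for Cyp2c67), among others. Ces1b, a carboxylesterase outside that list, was at 0.414, 0.441 and 0.278 CPM at 2 months and at 20.2, 4.18 and 5.16 CPM at 9 months (log2 change 4.71 ± 0.77, adjusted p = 0.0286), and at 51.8 to 132 CPM in the 2-month controls. Without tumour-free library 1 its log2 change was 3.65 (adjusted p = 0.00384), and without 2-month library 1, 2 or 3 its adjusted p was 0.129, 0.121 and 0.124.

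Of 24 tested genes that are higher in male than in female mouse liver, 9 were called lower (background 0.721%) and none higher, with a median log2 change of -0.37 and 6 of the 24 changes above 0. Of 14 tested female-biased genes, 3 were called higher (background 1.62%) and none lower: Cyp2a4, Cyp2c40 and Fmo2, described above. In controls 10 of 28 male-biased genes were called lower and 1 higher (backgrounds 4.64% and 7.29%), and 8 of 17 female-biased genes were called higher. The median log2 change of the male-biased list in controls was -1.04. In the interaction its median log2 was 0.715, with 22 of 28 values above 0, and 2 genes were called lower, Keg1 and C8a, and none higher.

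Keg1, a glycine N-acyltransferase-like gene on chr19:12695786-12719902, was at 31.4, 24.8 and 17.8 CPM at 2 months and at 3.12, 2.44 and 1.81 CPM at 9 months (log2 change -3.32 ± 0.28, adjusted p = 0.00173). Controls were at 196 to 435 CPM at 2 months and at 260, 142 and 179 CPM at 9 months, and the fall in mutants was larger (interaction log2 -2.71 ± 0.42, adjusted p = 0.00481). C8a, a subunit of complement component 8, was at 86.9, 24.6 and 45.9 CPM at 2 months and at 2.68, 7.55 and 4.15 CPM at 9 months (log2 change -3.44 ± 0.58, adjusted p = 0.0433; interaction log2 -2.85 ± 0.62, adjusted p = 0.0375). Without 2-month mutant library 1 the interaction log2 of C8a was -2.24 (adjusted p = 0.094). Its partner C8b, the neighbouring gene on chromosome 4, fell from 662, 604 and 556 to 250, 298 and 205 CPM (log2 change -1.27 ± 0.18, adjusted p = 0.013) and fell alike in controls (-1.61 ± 0.34, adjusted p = 0.0152; interaction adjusted p = 0.844). C6, the component that joins the complex before C8, fell from 648, 594 and 464 to 233, 227 and 155 CPM (log2 change -1.47 ± 0.21, adjusted p = 0.0139). In controls it fell too (-1.76 ± 0.24, adjusted p = 0.000916).

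Cyp4a12b, a male-biased fatty acid hydroxylase, fell from 313, 231 and 190 to 59.8, 48.7 and 21.2 CPM (log2 change -2.50 ± 0.39, adjusted p = 0.0243), and in controls by -3.33 ± 0.49 (adjusted p = 0.00332). Ugt2b38, a glucuronosyltransferase, fell from 3.31, 7.69 and 4.58 to 1.1, 1.12 and 0.574 CPM (log2 change -2.46 ± 0.40, adjusted p = 0.0226). Slco1a1, a carrier for bile acids and steroids, was near the floor in mutants, at 0.886, 0.82 and 1.02 CPM and then 0.176, 0.232 and 0.177 CPM (log2 change -2.18 ± 0.38, adjusted p = 0.0265), against 479 to 669 CPM in the 2-month controls. Mup7, a major urinary protein, was at 1.30, 0.567 and 0.741 CPM and then 0.0878, 0.155 and 0.132 CPM (log2 change -2.73 ± 0.51, adjusted p = 0.0329). Its 2-month controls ran from 1.37 to 1810 CPM, with a median of 682 CPM, so the control group was split in this gene, and Mup genes are near-identical copies. Serpina12, a secreted protease inhibitor, fell from 40.1, 36.3 and 24.8 to 9.14, 16.8 and 14 CPM (log2 change -1.34 ± 0.26, adjusted p = 0.0416), and was chosen after its values were seen.

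Of the 9 lower male-biased genes, Keg1 kept the call in all 6 leave-one-out fits, and 7 lost it without 2-month library 2 (adjusted p 0.0521 to 0.126) and 7 without tumour-free library 3 (0.0518 to 0.145). None kept it in a fit over all 5 groups of the series (adjusted p 0.0782 to 0.726). Without tumour-free library 1, 6 of 24 were called lower.

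**Figure D2:**
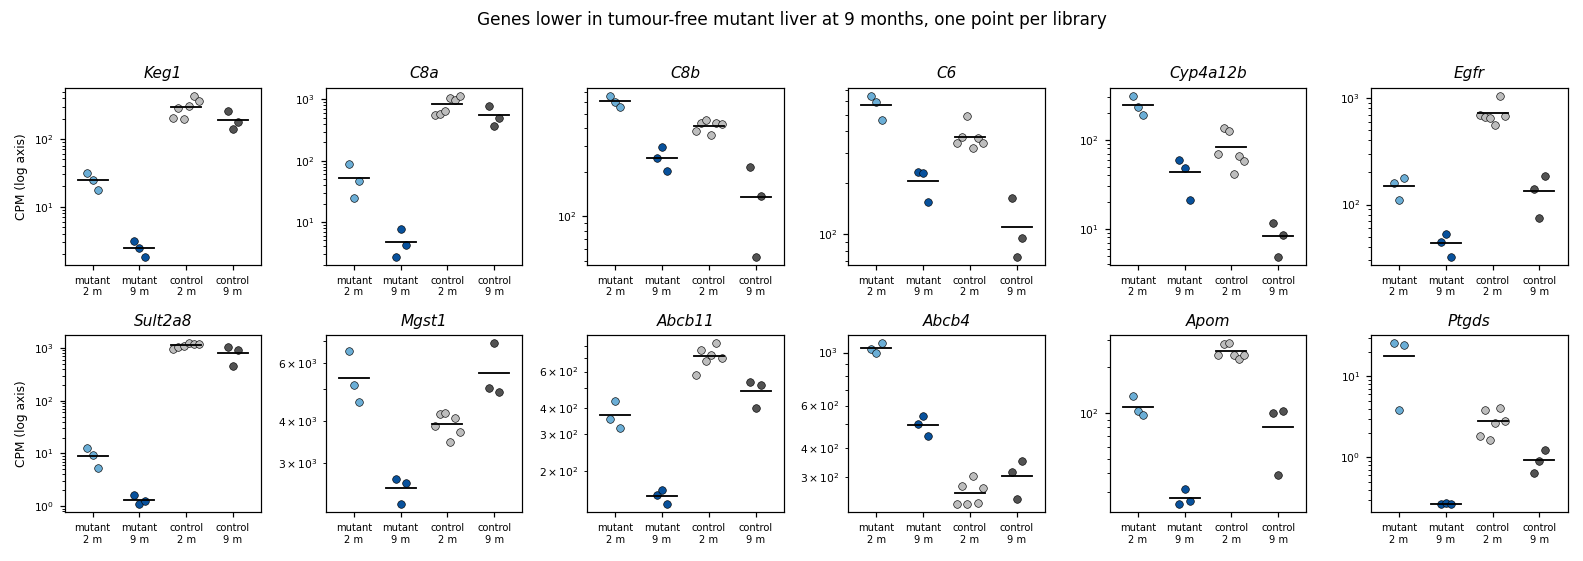
Level in CPM (log axis) of 12 genes that were lower in tumour-free mutant liver at 9 months, 1 point per library and a bar at each group mean. The 3 libraries at 9 months (dark blue) lie below the 3 at 2 months (light blue) in each panel; in C8b, C6, Cyp4a12b, Egfr, Abcb11, Apom and Ptgds the controls (grey) fell as well, and in Mgst1 they rose.

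Conjugating enzymes, which attach sulfate, glucuronate, glutathione or methyl groups, fell where they were called. Of 35 tested, 5 were called lower and none higher, with a median log2 change of -0.154 (background 0.721% lower), while in controls 13 of 34 were called higher and 2 lower (backgrounds 7.29% and 4.64%). Ugt2b38, Sult2a8, Mgst1 and Sult1a1 were among them. Sult2a8, a bile acid sulfotransferase with near-identical relatives, fell from 12.7, 9.27 and 5.28 to 1.67, 1.08 and 1.24 CPM (log2 change -2.77 ± 0.36, adjusted p = 0.0104), against 963 to 1240 CPM in the 2-month controls (interaction log2 -2.28 ± 0.41, adjusted p = 0.00948). Mgst1, the microsomal glutathione transferase, fell from 6551, 5140 and 4588 to 2683, 2242 and 2595 CPM (log2 change -1.11 ± 0.19, adjusted p = 0.0255). In controls Mgst1 rose (0.50 ± 0.13, adjusted p = 0.0268), and the changes differed (interaction log2 -1.63 ± 0.22, adjusted p = 0.00125). Sult1a1, a phenol sulfotransferase chosen after its values were seen, fell from 534, 542 and 359 to 250, 217 and 229 CPM (log2 change -1.04 ± 0.19, adjusted p = 0.0301; interaction log2 -1.09 ± 0.26, adjusted p = 0.0438). 

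Of 25 tested genes of bile acid synthesis and transport, 3 were called lower (background 0.721%) and none higher: the canalicular pumps Abcb11 and Abcb4 and Slco1a1. Abcb11, the bile salt export pump, fell from 357, 436 and 322 to 153, 163 and 138 CPM (log2 change -1.29 ± 0.16, adjusted p = 0.00864), and fell by less in controls (-0.57 ± 0.13, adjusted p = 0.0204), with an interaction adjusted p of 0.0852. Abcb4, the phosphatidylcholine floppase of bile, was at 1034, 996 and 1097 CPM at 2 months and at 504, 544 and 446 CPM at 9 months (log2 change -1.06 ± 0.15, adjusted p = 0.0134). The 2-month controls were at 231 to 306 CPM, below every mutant library, and the changes differed (interaction log2 -1.30 ± 0.20, adjusted p = 0.00344). Abcb11 kept the call in all 6 leave-one-out fits, and Sult2a8, Sult1a1, Mgst1 and Abcb4 lost it without tumour-free library 3 (adjusted p 0.0567 to 0.119).

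Of 37 tested complement and coagulation genes, 5 were called lower (background 0.721%) and none higher, with a median log2 change of -0.129. C6, C8a, C8b and Pros1 were among them. Pros1, the anticoagulant protein S, fell from 86.8, 65.7 and 74.4 to 49.7, 38.4 and 32.0 CPM (log2 change -0.92 ± 0.18, adjusted p = 0.0431). Among 40 secreted hepatocyte proteins 1 was called higher and 2 lower (backgrounds 1.62% and 0.721%). Serpina6, the corticosteroid-binding globulin, rose from 9.57, 3.85 and 4.26 to 30.4, 23.7 and 40.4 CPM (log2 change 2.42 ± 0.37, adjusted p = 0.0234), and Serpina3k, a kallikrein inhibitor, fell from 9624, 8963 and 6675 to 4765, 4149 and 3629 CPM (log2 change -1.01 ± 0.20, adjusted p = 0.0433). Apom, the lipoprotein carrier of sphingosine phosphate, fell from 129, 102 and 96.6 to 25, 31.4 and 26.4 CPM (log2 change -1.98 ± 0.16, adjusted p = 0.00141) and in controls by -1.66 ± 0.26 (adjusted p = 0.00282).

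Serpina3c, a serine protease inhibitor of a cluster of near-identical genes (chr12:104146382-104153870), was at 0.354, 0.63 and 0.648 CPM at 2 months and at 129, 111 and 84.3 CPM at 9 months (log2 change 7.60 ± 0.27, adjusted p = 1.35e-05). It rose in controls from at most 0.775 CPM to 1.22, 45.0 and 95.7 CPM (6.58 ± 1.09, adjusted p = 0.00873). Apcs, the serum amyloid P component, rose from 34.1, 18.5 and 19.9 to 74.3, 68.5 and 82.3 CPM (log2 change 1.64 ± 0.23, adjusted p = 0.0151). It was the 1 called gene of 28 tested acute phase genes (background 2.35%). Wfdc21, a small whey acidic protein domain gene, fell from 48.6, 48.1 and 27.0 to 4.66, 1.74 and 1.85 CPM (log2 change -3.91 ± 0.44, adjusted p = 0.01), while controls stayed at 324 to 474 CPM at 2 months and 423, 377 and 440 CPM at 9 months (interaction log2 -3.97 ± 0.40, adjusted p = 0.000255). Without tumour-free library 1 the log2 change of Wfdc21 was -4.49. Igfbp2, an IGF binding protein, fell from 9.57, 14.6 and 6.71 to 2.06, 1.36 and 1.46 CPM (log2 change -2.65 ± 0.33, adjusted p = 0.00966).

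Ptgds, the prostaglandin D2 synthase (chr2:25466709-25470046), was at 25.8, 3.85 and 24.4 CPM at 2 months and at 0.264, 0.271 and 0.265 CPM at 9 months (log2 change -6.05 ± 0.84, adjusted p = 0.0208). It was the largest fall by the naming rule, and 2-month library 2 was the lowest of its group. Controls fell by less (-1.59 ± 0.36, adjusted p = 0.0173; interaction log2 -4.48 ± 0.84, adjusted p = 0.0146). Of these 9 secreted protein genes outside the male-biased list, Serpina3c, Apom and Wfdc21 kept the call in all 6 leave-one-out fits, and 6 lost it without tumour-free library 3 (adjusted p 0.0573 to 0.166). In the fit over all 5 groups 5 of the 9 lost the call, Apom among them (adjusted p 0.0587 to 0.155). With limma voom Ptgds had an adjusted p of 0.141.

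**Figure D3:**
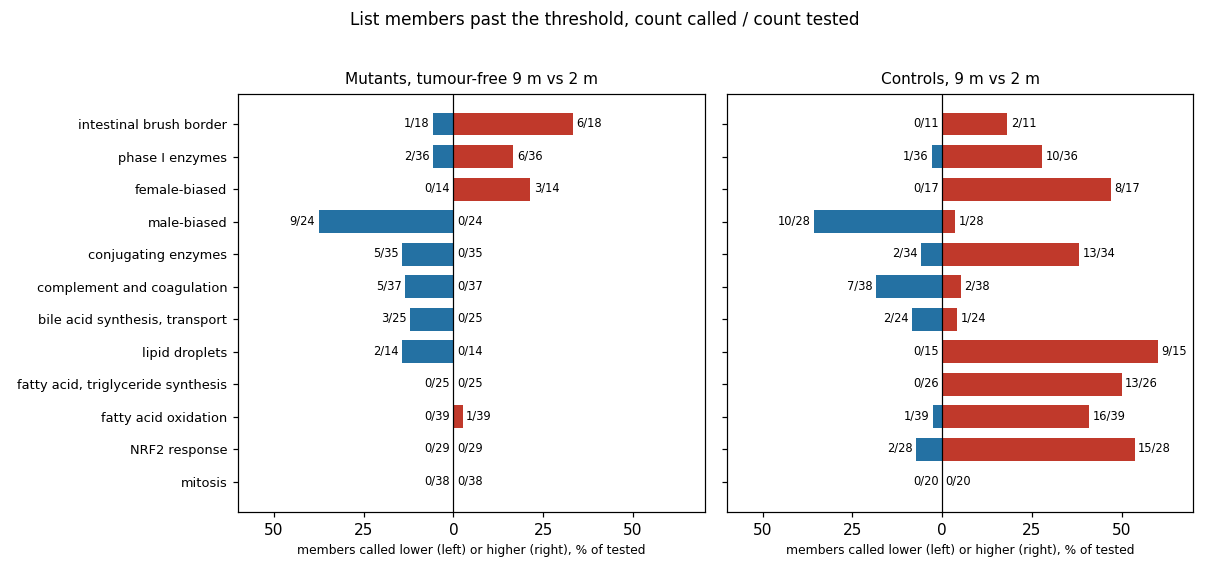
Share of the tested members of 12 gene lists that were called higher (red, to the right) or lower (blue, to the left) at 9 months, in mutants (left panel) and controls (right panel), with the count called over the count tested beside each bar. Of these 12 lists, in mutants the brush border list has the largest share called higher (6 of 18) and the male-biased list the largest share called lower (9 of 24), and the 4 lists of lipid synthesis, lipid oxidation, lipid droplets and the NRF2 response have at most 2 calls each in mutants and 9 to 16 higher calls in controls. The control test has 3 against 6 animals. In the NRF2 list the median log2 change was 0.452 in mutants and 0.595 in controls, and the interaction called 2 of 29 lower.

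Few lipid genes were called in the mutants, and several that rose with time in controls were lower or not called in mutants. Of 14 lipid droplet genes 2 were called lower in mutants (background 0.721%) and none higher, while 9 of 15 were called higher in controls (background 7.29%). The interaction called 4 of 15 lower (background 1.05%) and none higher. Plin2, the main droplet coat protein of hepatocytes, fell in mutants from 225, 250 and 223 to 134, 144 and 132 CPM (log2 change -0.77 ± 0.13, adjusted p = 0.0226). It rose in controls from 371 to 599 CPM (median 442 CPM) to 673, 818 and 907 CPM (0.74 ± 0.16, adjusted p = 0.0136), and the changes differed (interaction log2 -1.53 ± 0.22, adjusted p = 0.00298). Plin4, another coat protein, fell in mutants from 7.15, 8.26 and 5.88 to 2.81, 3.25 and 3.49 CPM (log2 change -1.15 ± 0.22, adjusted p = 0.0353). In controls it rose to 43.9, 69.3 and 48.1 CPM (2.49 ± 0.47, adjusted p = 0.0117; interaction log2 -3.65 ± 0.64, adjusted p = 0.0123).

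Cidec, which fuses lipid droplets, was already high in mutants at 2 months, at 77.2, 356 and 198 CPM, and was at 136, 156 and 176 CPM at 9 months (log2 change -0.43 ± 0.48, adjusted p = 0.685). Controls were at 1.06 to 2.49 CPM at 2 months and at 40.6, 144 and 94.0 CPM at 9 months (5.84 ± 0.37, adjusted p = 1.85e-05), so the levels of the 2 genotypes overlapped at 9 months. The interaction log2 was -6.29 ± 0.69 (adjusted p = 0.000802).

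Of 25 tested genes of fatty acid and triglyceride synthesis edgeR and limma voom called none in mutants (4 had an unadjusted p under 0.05, and DESeq2 called 3). In controls 13 of 26 were called higher (background 7.29%), and the interaction called 4 of 26 lower (background 1.05%). Fads1 and Fads2 make polyunsaturated fatty acids. Fads1 was at 455, 563 and 246 CPM at 2 months and at 224, 103 and 119 CPM at 9 months (log2 change -1.5 ± 0.39, adjusted p = 0.104; interaction log2 -2.06 ± 0.40, adjusted p = 0.018). Fads2 was at 496, 968 and 382 CPM and then 347, 329 and 302 CPM (log2 change -0.91 ± 0.32, adjusted p = 0.185), and rose in controls (0.96 ± 0.12, adjusted p = 0.000676; interaction log2 -1.89 ± 0.32, adjusted p = 0.00709).

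Of 39 fatty acid oxidation and ketogenesis genes 1 was called higher in mutants (background 1.62%). In controls 16 were called higher and 1 lower (backgrounds 7.29% and 4.64%), and the interaction called 6 lower (background 1.05%). The 1 gene called in mutants was Acaa1b, a peroxisomal thiolase, which rose from 54.4, 70.9 and 58.6 to 126, 127 and 123 CPM (log2 change 1.03 ± 0.13, adjusted p = 0.0104) and in controls by 1.48 ± 0.18 (adjusted p = 0.000443). Slc27a4, a fatty acid transport protein, rose alike in mutants (0.57 ± 0.11, adjusted p = 0.0416) and controls (0.58 ± 0.11, adjusted p = 0.00592; interaction adjusted p = 0.982). Of 29 genes of the NRF2 antioxidant response edgeR and limma voom called none in mutants (12 had an unadjusted p under 0.05, and DESeq2 called 9). In controls 15 of 28 were called higher and 2 lower (backgrounds 7.29% and 4.64%). The median log2 change of this list was 0.452 in mutants, with 24 of 29 changes above 0, and 0.595 in controls, with 21 of 28 above 0. Its interaction median was -0.0854, with 2 of 29 called lower (background 1.05%) and none higher. Acaa1b kept the call in all 6 leave-one-out fits, and Plin2, Plin4 and Slc27a4 lost it without 2-month library 2 (adjusted p 0.103 to 0.146). The interaction calls of Plin2 and Plin4 held in all leave-one-out fits.

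**Figure D4:**
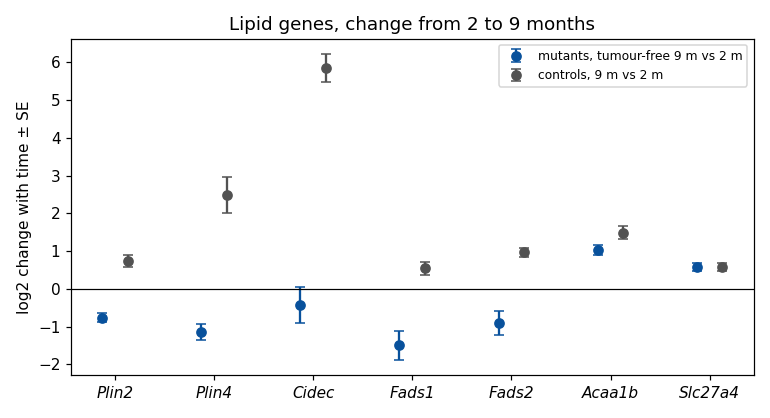
Log2 change from 2 to 9 months (vertical axis, points with SE bars) of 7 lipid genes in mutants (blue) and controls (grey). Plin2, Plin4, Cidec, Fads1 and Fads2 lie below 0 in mutants and above 0 in controls, with mutant adjusted p under 0.05 for Plin2 and Plin4 among these 5, and Acaa1b and Slc27a4 lie above 0 in both.

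Of 27 tested oncofetal and liver tumour marker genes, 2 were called higher in mutants, Afp and Dlk1, and none lower (backgrounds 1.62% and 0.721%). Afp, the fetal serum protein used as a marker of liver cancer, was at 0.354, 0.757 and 0.509 CPM at 2 months and at 19.9, 5.77 and 5.03 CPM at 9 months (log2 change 4.24 ± 0.67, adjusted p = 0.0251). Tumour-free library 1 was the highest, and without it the log2 change was 3.34 (adjusted p = 0.0054). Controls stayed at 0.423 to 2.11 CPM at 2 months and 0.463, 1.30 and 0.79 CPM at 9 months (interaction log2 4.80 ± 0.84, adjusted p = 0.00895). Dlk1, a Notch-like membrane protein of fetal liver, had 1 count at 2 months and 121 at 9 months, a ratio of 92.4 after scaling to library size, with a 95% counting interval of 16.3 to 3680. Its 9-month values were 3.51, 0.774 and 0.927 CPM, and the adjusted p was 0.0311. Leaving out 2-month library 3 or tumour-free library 1 gave a log2 change of 8.18 (adjusted p = 0.109) or 5.15 (adjusted p = 0.0196) for Dlk1, against 6.17.

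None of 38 mitosis genes was called by edgeR, DESeq2 or limma voom, 2 had an unadjusted p under 0.05, and 33 of the 38 log2 changes were above 0, with a median of 0.476. Of 34 genes of DNA replication and entry into S phase 1 was called by edgeR (background 2.35%) and 4 by DESeq2, and 13 had an unadjusted p under 0.05. Of the 34 log2 changes 27 were above 0, with a median of 0.51. The called gene was lower: E2f8, a repressor of the E2F family, fell from 5.91, 8.45 and 6.11 to 1.93, 1.28 and 0.75 CPM (log2 change -2.36 ± 0.35, adjusted p = 0.0159). Tumour-free library 1 was the highest of its group in 27 of the 38 mitosis genes and in 24 of the 34 replication genes. No mitosis gene was called when any 1 library was left out, and the medians without tumour-free library 1 are not given here. Among 28 p53 targets 2 were called higher and none lower (backgrounds 1.62% and 0.721%). Cdkn1a, the cyclin-dependent kinase inhibitor p21, rose from 40.3, 38.4 and 48.3 to 84.0, 71.5 and 83.3 CPM (log2 change 0.91 ± 0.14, adjusted p = 0.0159), against 1.58 to 10.7 CPM in the 2-month controls. Phlda3, an inhibitor of Akt signalling, rose from 3.96, 3.28 and 5.51 to 9.44, 12.5 and 14.3 CPM (log2 change 1.5 ± 0.25, adjusted p = 0.0234), and in controls by 2.32 ± 0.29 (adjusted p = 0.000557).

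The EGF receptor gene fell and 1 of its ligands rose. Egfr went from 158, 111 and 178 to 44.2, 53.2 and 32.1 CPM (log2 change -1.79 ± 0.23, adjusted p = 0.0104), and fell in controls from a median of 675 CPM to 140, 74.7 and 187 CPM (-2.44 ± 0.29, adjusted p = 0.000578; interaction adjusted p = 0.577). Areg, the ligand amphiregulin, had 3 counts at 2 months and 50 at 9 months, a ratio of 12.7 after scaling to library size, with a 95% counting interval of 4.11 to 63.8 (adjusted p = 0.0464). Its fitted log2 change was 3.56, and 4.28 without 2-month library 3 (adjusted p = 0.0746). Of the 7 genes Afp, Dlk1, E2f8, Cdkn1a, Phlda3, Egfr and Areg, Egfr kept the call in all 6 leave-one-out fits, and the other 6 lost it without 2-month library 2 (adjusted p 0.0638 to 0.155).

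Almost no fixed marker of another liver cell type was called. Over the 8 fixed markers of each type, the summed level was 455 to 699.1 CPM at 2 months and 386.7 to 471.8 CPM at 9 months for Kupffer cells, and 222.4 to 271.7 and 213.7 to 261.4 CPM for sinusoidal endothelium. It was 234.4 to 270.9 and 278.6 to 360.8 CPM for stellate cells, and 196.4 to 550.7 and 216 to 523.6 CPM for myofibroblasts and matrix. The libraries of the 2 groups did not overlap in the stellate cell sum. Of these 4 sets, all 8 markers of each were tested and none was called. In the longer Kupffer cell list of 18 genes, 1 was called lower in mutants, C6, described above (background 0.721%). In controls 6 of the 18 were called lower (background 4.64%). The median log2 change of this list in mutants was -0.417, with 3 of 18 changes above 0. Its summed level in mutants, C6 included, was 1537 to 1817 CPM at 2 months and 1067 to 1222 CPM at 9 months. C6, whose levels and fall are given above, made up a large part of this sum. The sum of the 8 fixed Kupffer cell markers overlapped between the 2 times. Esm1, a marker of endothelial tip cells, was the 1 called gene among 6 tested markers of capillarised and large-vessel endothelium (background 2.35%), at 0.709, 0.82 and 1.48 CPM at 2 months and 3.07, 4.18 and 4.46 CPM at 9 months (log2 change 1.93 ± 0.35, adjusted p = 0.0289).

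Among 21 tested genes of monocyte-derived and lipid-associated macrophages, 2 were called higher and 1 lower (backgrounds 1.62% and 0.721%). Cd63, a tetraspanin of lysosomes, rose from 21.7, 28.9 and 30.9 to 60.0, 57.3 and 78.7 CPM (log2 change 1.27 ± 0.18, adjusted p = 0.0141), and Lgals3, the lectin galectin-3, from 104, 149 and 127 to 221, 323 and 350 CPM (1.24 ± 0.21, adjusted p = 0.0251). Atp6v0d2, a proton pump subunit of macrophages and osteoclasts, fell from 773, 563 and 674 to 376, 366 and 312 CPM (-0.93 ± 0.17, adjusted p = 0.0303). All 3 were above every control library at both times. The 8 fixed markers of these macrophages summed to 104.6 to 249.5 CPM at 2 months and 102.4 to 159 CPM at 9 months, and none of the 7 tested was called.

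Trac, the constant segment of the T cell receptor alpha chain, rose from 0.886, 1.32 and 2.41 to 9.66, 39.6 and 32.5 CPM (log2 change 4.11 ± 0.62, adjusted p = 0.0257), and controls stayed at or below 1.52 CPM (interaction log2 3.91 ± 0.63, adjusted p = 0.00576). Of the CD3 chains that accompany the receptor, Cd3e and Cd3g were tested and not called, and Cd3d and Cd247 did not pass the expression filter. Cd3e was at 1.18, 0.567 and 0.787 CPM at 2 months and at 0.835, 0.813 and 1.15 CPM at 9 months (log2 change 0.14 ± 0.38, adjusted p = 0.883), and Cd3g went from 0.827, 0.883 and 2.08 to 0.659, 0.503 and 0.441 CPM (adjusted p = 0.194). Over 8 T and NK cell markers, 4 of them tested and none called, the summed level was 5.908 to 7.732 CPM at 2 months and 4.105 to 6.193 CPM at 9 months. Trac was the only called gene of 21 tested in the T and NK cell list (background 2.35%).

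Of 25 tested genes of Notch, VEGF and Tie signalling 2 were called higher and 1 lower (backgrounds 1.62% and 0.721%). The VEGF receptor Flt1 rose from 8.15, 11.7 and 11.1 to 23.4, 25.7 and 28.5 CPM (log2 change 1.33 ± 0.17, adjusted p = 0.00991), and Flt4, the receptor of lymphatic and sinusoidal endothelium, from 52.2, 105 and 121 to 267, 249 and 243 CPM (1.45 ± 0.28, adjusted p = 0.0433). Nrp1, a VEGF co-receptor, fell from 114, 78.4 and 107 to 51.9, 62.3 and 40.5 CPM (-0.95 ± 0.20, adjusted p = 0.0475). Bmp6, an iron-responsive ligand made by endothelium, was the 1 called gene of 32 tested in TGF-beta signalling (background 2.35%), at 3.6, 3.15 and 4.44 and then 7.16, 22.8 and 14 CPM (1.97 ± 0.40, adjusted p = 0.0488). Of the 9 genes from Esm1 to Bmp6, Flt1 kept the call in all 6 leave-one-out fits, and the other 8 lost it without 2-month library 2 (adjusted p 0.0569 to 0.169) or tumour-free library 3 (0.0518 to 0.148), or both. Over all 14 alternatives Flt1 kept the call in 13 (adjusted p up to 0.0601).

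Mutants and controls share no library in these tests but share the 2 runs, so changes common to both cannot be told apart from run. Of the 13123 genes tested in both, 241 were called in mutants and 1536 in controls, and 96 in both, which is 39.8% of the mutant calls and 6.25% of the control calls. Over all 13123 genes 11.7% were called in controls and 1.84% in mutants. In 88 of the 96 the direction was the same, as it was for 66.4% of all 13123 genes, with 56 higher and 32 lower in both. The other 8 went opposite ways: Nebl, Plin2, Mgst1, Tnfrsf19 and Plin4 fell in mutants and rose in controls, and Fam222a, Mical2 and Csad rose in mutants and fell in controls. Nebl, an actin-binding protein, fell from 7.38, 7.38 and 5.83 to 2.46, 1.55 and 0.574 CPM (log2 change -2.16 ± 0.43, adjusted p = 0.0447) and rose in controls from at most 0.458 CPM to 3.30, 2.43 and 2.48 CPM (3.45 ± 0.35, adjusted p = 0.000128). Tnfrsf19, a receptor of the TNF family, fell by -1.70 ± 0.31 (adjusted p = 0.0302) and rose in controls by 0.55 ± 0.16 (adjusted p = 0.0482). Fam222a, Mical2 and Csad, chosen after their values were seen, rose by 1.51 ± 0.31, 0.75 ± 0.14 and 0.99 ± 0.18. All 8 differed in the interaction, with adjusted p from 0.000255 for Nebl to 0.018 for Fam222a.

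**Figure D5:**
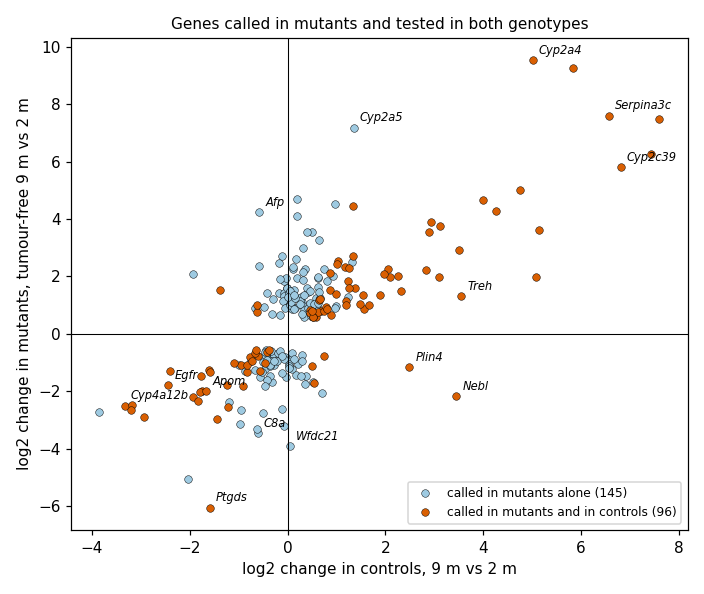
Log2 change from 2 to 9 months in mutants (vertical axis) against that in controls (horizontal axis), 1 point for each of the 241 genes called in mutants and tested in both genotypes, with 14 genes labelled. Orange points (96) were also called in controls; 88 of them lie on the same side of 0 on both axes.

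The interaction called 223 of 14707 genes (1.52%), 68 with a higher (0.462%) and 155 with a lower (1.05%) change in mutants than in controls. In Cyp2b9, Themis and Cdh1 the change with time was called in controls and not in mutants. Cyp2b9, a female-biased P450, rose in controls from at most 0.931 CPM to 113, 224 and 71.6 CPM (log2 change 8.46 ± 0.60, adjusted p = 7.58e-05), and in mutants it was at 4.19, 0.82 and 1.62 and then 13.7, 4.65 and 8.56 CPM (2.02 ± 0.61, adjusted p = 0.147). Themis, a T cell development gene, rose in controls to 11.5, 19.9 and 9.70 CPM (5.34 ± 0.29, adjusted p = 2.72e-06) and was at 10.2, 14.8 and 14.7 and then 31.4, 18.2 and 18.4 CPM in mutants (adjusted p = 0.159). Cdh1, the epithelial cadherin, fell in controls from 32.5 to 78.7 CPM to 5.85, 4.64 and 5.75 CPM (-3.48 ± 0.28, adjusted p = 3.16e-05) and was at 261, 194 and 292 and then 184, 281 and 183 CPM in mutants (-0.20 ± 0.22, adjusted p = 0.667). In Tff3, a trefoil peptide of mucosal surfaces, both genotypes added to the value: it fell in controls (-3.57 ± 0.88, adjusted p = 0.0294) and was at 2.13, 14.4 and 14.9 and then 32.9, 94.3 and 169 CPM in mutants (3.23 ± 0.85, adjusted p = 0.122; interaction log2 6.79 ± 1.39, adjusted p = 0.0305). Of the 31 genes described here that were called in the interaction, 22 kept the call whichever library was left out. C8a, Ces1b, Cyp2a5, Fads1, Myo15b, Ptgds, Sult1a1, Tff3 and Treh lost it in at least 1 such fit (adjusted p 0.0501 to 0.15), and 18 of the 31 lost it in the fit over all 5 groups. Without tumour-free library 1 the interaction log2 was 4.21 for Cyp2a5, 3.46 for Ces1b and 3.92 for Afp. For Myo15b it was 3.04, with 4.06 without 2-month mutant library 3 and 3.63 without 9-month control library 3.

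The remaining named falls in mutants were Csrp3, Scara3, Gm33543 and Tymp, and Car3 was a further rise. Csrp3, a muscle LIM protein, fell from 28.5, 22.3 and 13.4 to 3.78, 1.47 and 1.77 CPM (log2 change -3.19 ± 0.42, adjusted p = 0.0141), while controls stayed at 25.8 to 41.4 CPM at 2 months and 32.4, 37.0 and 34.8 CPM at 9 months (interaction log2 -3.14 ± 0.39, adjusted p = 0.00107). Scara3, a scavenger receptor, fell by -2.55 ± 0.49 (adjusted p = 0.0436), and by -1.80 without 2-month library 3 (adjusted p = 0.0236). Gm33543 fell by -2.04 ± 0.28 (adjusted p = 0.0141) and Tymp, the thymidine phosphorylase, by -1.83 ± 0.28 (adjusted p = 0.0192). Scara3, Gm33543 and Tymp were called lower in controls as well. Car3, carbonic anhydrase 3, rose from 21.8, 33.9 and 29.4 to 143, 111 and 148 CPM (2.24 ± 0.20, adjusted p = 0.00195), against 1790 to 6700 CPM in the 2-month controls, and kept the call in all 6 leave-one-out fits. Over all 14 alternatives Car3 kept the call in 13 (adjusted p up to 0.228). Of the 10 genes Csrp3, Scara3, Nebl, Gm33543, Tymp, Tnfrsf19, Car3, Fam222a, Mical2 and Csad, 9 lost the call without tumour-free library 3 (adjusted p 0.0659 to 0.162).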

How the data were processed

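Per the labels' protocols, 19 liver and tumour samples gave stranded mRNA libraries made with poly(A) purification. The authors deposited a table of whole-number counts per gene and library, for 55421 genes, 24684 of them with no count. Per the submitters' processing notes, the tools were RSEM, DESeq2 1.22.2, STAR 2.6.1a and bedtools 2.27.1, with GRCm38 (mm10). Which tool made the counts is not given in the sources used here, so the counts may be RSEM estimates rounded by the authors.

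The main test was the robust quasi-likelihood test of edgeR 4.0.16 (R 4.3.3), with its expression filter and TMM factors, on the groups of the comparison alone, and was first tried on simulated data. Levels are TMM-scaled CPM over all 19 libraries, and changes come from the fits. Lists and members were chosen with earlier results of these data known, so lists are described by counts alone. Ratios of low counts carry 95% intervals for counting error only.

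Named genes are, per comparison, the 15 largest called rises and the 15 largest called falls with at least 5 CPM in the higher group, up to 4 members of a list with the smallest p and 2 by the interaction, cell type markers, and Jun, Fosl2 and Myc. Some are not reported here. Positions come from GENCODE M21 (GRCm38) and promoters from RefSeq (GRCm38.p6). Nothing states that same-numbered samples are paired. The correlation of their deviations was -0.0832, -0.242 and 0.0877 across genes, against -0.125 to 0.264 for differently numbered samples. With 3 libraries per group these values cannot decide whether the numbers pair them, and the main test used no block. Alternatives were RLE factors, library size, no filter, DESeq2 1.42.0, limma 3.58.1 voom, 1 fit over 5 groups, a 2-fold minimum, protein coding genes, the replicate block and leaving out each library. The p-values measure the spread between these animals.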

Additional observations from a re-analysis of the deposited data

Results flagged for a closer look

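In 31 of the genes described above, the change with time differed between the genotypes by edgeR's test of the difference itself (adjusted p under 0.05). They are part of the 223 genes called in the interaction. All values are log2 differences, mutant change minus control change, and positive values mean that mutants rose more or fell less. The change was higher in mutants for Tff3 (6.79), Cyp2a5 (5.81), Afp (4.80), Ces1b (4.49), Trac (3.91), Cdh1 (3.26), Cyp2c38 (3.07), Myo15b (3.04), Fam222a (2.88), Espn (2.65), Csad (1.59) and Mical2 (1.37). It was lower in mutants for Cyp2b9 (-6.46), Cidec (-6.29), Nebl (-5.63), Themis (-4.58), Ptgds (-4.48), Wfdc21 (-3.97), Plin4 (-3.65), Csrp3 (-3.14), C8a (-2.85) and Keg1 (-2.71). Smaller lower values were those of Sult2a8 (-2.28), Tnfrsf19 (-2.26), Treh (-2.25), Fads1 (-2.06), Fads2 (-1.89), Mgst1 (-1.63), Plin2 (-1.53), Abcb4 (-1.30) and Sult1a1 (-1.09).

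In 6 named genes a single library of the 6 controls at 2 months lay apart from the other 5 by Dixon's criterion, which chance meets in about 5% of groups. It was applied to all genes described here, apart from those near the floor in these controls. The number of genes screened is not given here, and whether 6 is more than chance would give was not tested. Library 3 was the highest in C6 (492 CPM) and Fam222a (6.62 CPM). Library 5 was the highest in Egfr (1050 CPM) and the lowest in Tnfrsf19 (7.03 CPM). Library 2 was the highest in Lgals3 (10.8 CPM) and library 1 in Cidec (2.49 CPM).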

How the results depend on the processing

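The mutant comparison gave 332 called genes. RLE factors gave 330, limma voom 296, 1 fit over all 5 groups 285, protein coding genes alone 266 and a 2-fold minimum 264. Shared with the 332 were 327 genes for RLE factors, 284 for limma voom and 170 for the fit over all 5 groups. Without the expression filter 759 were called and with DESeq2 950. Library size alone gave 410, with 79.8% of them higher and a median log2 change of 0.105 over all genes, while 230 of the 332 were higher. Leaving out 1 library gave 90 to 557. The control comparison (1616) gave 581 with the 2-fold minimum, 1056 in 1 fit over 5 groups and 797 to 1899 with a library left out. The interaction (223) gave 534 with DESeq2, 54 in 1 fit over 5 groups, 110 to 293 with a library left out and 245 without both 9-month libraries numbered 1. Library size alone gave 179, 51.4% of them higher in mutants, against 68 of 223. With the replicate block the counts were 443, 384 and 92. Same-numbered samples are different animals, whose deviations did not correlate above 0.1 in any pair of the mutant comparison. The causes of these shifts were not tested.

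No called mutant change of a named gene reversed: 826 kept and 317 lost the call over genes and alternatives. Uncalled log2 changes reversed for 5 genes. For Jun this was with limma voom (-0.009615), the replicate block (-0.00516), without 2-month library 3 (-0.07332) and without tumour-free library 1 (-0.1411) or 2 (-0.01573), with a leave-one-out range up to 0.2325. Without tumour-free library 1, Myc was at -0.2577 (others up to 1.351) and Egr1 at -0.422 (up to 3.766). Without 2-month library 2, Cidec was at 0.1787 (lowest -0.8289) and Cd3e at -0.07283, and Cd3e was at -0.04005 without tumour-free library 3 (highest 0.44). With 3 animals per group and 1 run per time, genes near the threshold move in and out with single libraries.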

Other observations

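Meg3 and Rian, of the imprinted cluster on chromosome 12 that also holds Dlk1, were chosen after their values were seen. Meg3, a maternally expressed long noncoding RNA (chr12:109541001-109571726), was at 35.1, 25.2 and 28.2 CPM in the 2-month mutants and at 50.4, 63.0 and 76.8 CPM in the 9-month tumour-free mutants (log2 change 1.1 ± 0.19, adjusted p = 0.0251). Rian, a host gene of small nucleolar RNAs in the same cluster (chr12:109603940-109661716), went from 12.4, 12.6 and 12.8 to 22.8, 24 and 30 CPM (log2 change 1.02 ± 0.14, adjusted p = 0.0134). Both were above every control library at 2 and at 9 months, where the highest control values at 2 months were 6.94 and 2.09 CPM. Neither had an adjusted p under 0.05 in the interaction (0.388 and 0.846). Across the tumour-free libraries both were lowest in library 1, where Dlk1 was highest. Meg3 lost the call in 5 of 13 alternatives and Rian in 2 (adjusted p up to 0.675 and 0.703, in the fit over all 5 groups), and without 2-month library 2 the adjusted p was 0.11 and 0.0638.

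Gm42418, Lars2 and Mir6236, 3 features that carry ribosomal RNA sequence or share it, were also chosen after their values were seen. Gm42418 (chr17:39846958-39848788) was at 374, 431 and 415 CPM at 2 months and at 127, 109 and 148 CPM at 9 months (log2 change -1.67 ± 0.16, adjusted p = 0.00284). Lars2, the mitochondrial leucyl-tRNA synthetase, went from 59.6, 73.2 and 58.6 to 23.6, 20.9 and 26.7 CPM (-1.43 ± 0.15, adjusted p = 0.0041), and Mir6236 from 21.6, 32.3 and 21.3 to 4.39, 4.10 and 9.31 CPM (-2.07 ± 0.34, adjusted p = 0.0274). In controls their log2 changes were 0.51 ± 0.49, 0.16 ± 0.30 and 0.71 ± 0.60, with adjusted p from 0.482 to 0.763. None of the 3 was among the genes called in the interaction. Lars2 kept the call in all 14 alternatives, Gm42418 in 12 of 13 and Mir6236 in 9 of 13 (adjusted p up to 0.0894).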
